A study of Mus musculus with 8 samples.

Results

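Autophagy genes were followed in neutrophils sorted from mouse spleen, a set of 10 genes that run from the start of autophagy to its transcriptional control: *Ulk1*, *Becn1*, *Atg5*, *Atg7*, *Map1lc3a*, *Map1lc3b*, *Gabarap*, *Gabarapl1*, *Sqstm1* and *Tfeb*. They were chosen by symbol, through the Ensembl gene identifier in GENCODE M21, and make up 10 of the 55414 genes listed. All 10 were among the 16778 genes with enough counts to be tested. The samples were 4 WT and 4 *Cxcr2-/-* mice, all on the FVB background, aged 10 weeks and kept in specific and opportunistic pathogen free housing, with 1 library per mouse. *Cxcr2-/-* mice lack, in every cell of the body, a chemokine receptor of neutrophils that binds several of the CXC chemokines. Effects within neutrophils and effects of the other tissues therefore cannot be told apart. Cells were selected for CD11b and then sorted as CD45+ CD11b+ Ly6G+ F4/80- cells. The comparison asked which genes of this pathway differed in RNA level between neutrophils with and without *Cxcr2*.

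Autophagy encloses part of the cytoplasm in a double membrane, the autophagosome, which then fuses with the lysosome, where its content is degraded. The Ulk1 kinase and the Becn1 lipid kinase complex start the membrane, a ubiquitin-like system with Atg7 and Atg5 attaches proteins of the Atg8 family (LC3 and GABARAP proteins) to it, and receptors such as Sqstm1 bring in the cargo. In neutrophils the pathway is known for its part in differentiation from granulocyte precursors, where it supplies substrates by breaking down stored lipid, and in granule release. Most of its control acts on proteins, so an RNA level is not a measure of autophagic flux, which was not measured in these libraries.

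Of the 10 genes, 5 fell in *Cxcr2-/-* neutrophils, 1 rose and 4 did not pass. *Sqstm1*, *Map1lc3b*, *Gabarapl1*, *Tfeb* and *Ulk1* fell, to between 0.664 and 0.772 of their WT level, and *Atg5* rose to 1.21 times its WT level. *Becn1*, *Atg7*, *Map1lc3a* and *Gabarap* did not pass. A gene passed with an adjusted p under 0.05 in the quasi-likelihood test of edgeR, with p-values adjusted by Benjamini-Hochberg over all genes tested. By the same rule 44.7% of all genes tested passed, 23.7% as higher and 21% as lower, so that passing was common in these data. With the added requirement of a 1.5-fold change, which 31.3% of all genes met (15.7% as higher and 15.7% as lower), *Sqstm1* was the 1 gene called lower and no autophagy gene was called higher. This count of genes called lower depended on the fit, since *Sqstm1*, *Map1lc3b* and *Gabarapl1* all lay close to 1.5-fold. It was 0 without WT 1 or *Cxcr2-/-* 2, 2 without WT 2, WT 3, WT 4 or *Cxcr2-/-* 3, and 3 without *Cxcr2-/-* 4. It was 2 with DESeq2, RLE scaling or no filter, and 3 with upper quartile or total count scaling, the stricter filter or without both *Cxcr2-/-* 3 and 4. The WT and *Cxcr2-/-* libraries did not overlap in CPM (a gene's counts relative to the total of its library, scaled with TMM factors) for the same 5 genes that fell and for *Atg5*, against 41.6% of all genes (22.5% higher and 19.1% lower). The median log2 fold change of the 10 genes was -0.24, beside 0.01 over all genes tested.

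**Figure D1:**
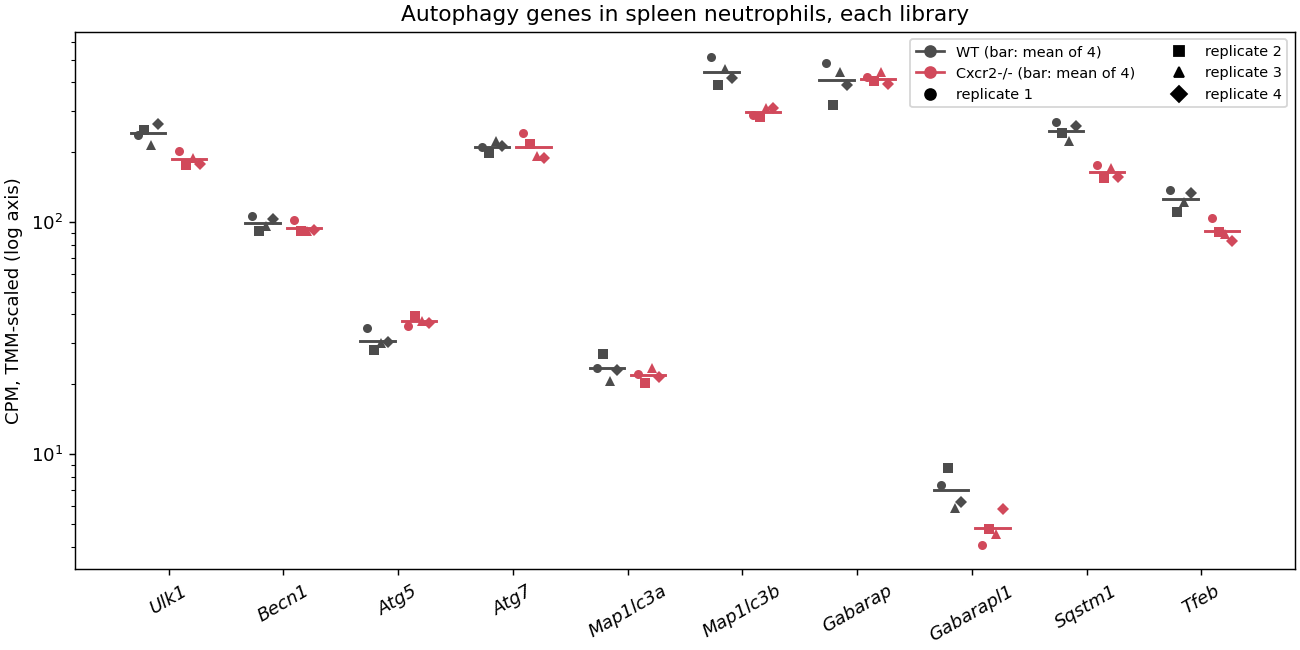
CPM (TMM-scaled, log axis) of each of the 10 autophagy genes in the 4 WT libraries (grey) and the 4 Cxcr2-/- libraries (red), with a symbol for each replicate and a bar for the group mean. The groups do not overlap for Ulk1, Atg5, Map1lc3b, Gabarapl1, Sqstm1 and Tfeb and overlap for the other genes.

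The depth was lowest for *Gabarapl1*, with 161 to 435 counts per library, whereas the other genes had between 735 (*Map1lc3a*) and 23359 (*Map1lc3b*). Total counts on genes ranged from 34220182 to 46233555 in WT and from 37549648 to 43789253 in *Cxcr2-/-* libraries. *Cxcr2* itself was at 1719 to 2252 CPM in WT and at 12.9 to 20.7 CPM in *Cxcr2-/-* libraries, as the labels state. The *Cxcr2-/-* libraries held more RNA of neutrophil progenitor markers: all 8 of them rose, and their summed level was 1071 to 1287 CPM against 341 to 387 CPM in WT. *Mpo* was at 19.1, 20.2, 81.2 and 145.8 CPM in *Cxcr2-/-* 1 to 4, and *Elane*, *Prtn3*, *Ctsg* and *Ms4a3* were also highest in *Cxcr2-/-* 3 and 4. *Cebpe* ran the other way, at 252, 187, 165 and 138 CPM in *Cxcr2-/-* 1 to 4. *Mki67* and *Top2a* were highest in *Cxcr2-/-* 2. Summed neutrophil markers were at 63916 to 77464 CPM in *Cxcr2-/-* against 30248 to 43734 CPM in WT, a sum made up mostly of *S100a8* and *S100a9*. Of these 8 markers 5 rose and 2 fell, *Cxcr2* and *Csf3r*, the latter from 6960 to 3334 CPM on average. B cell markers fell for 5 of 6 genes, with sums of 28.3 to 63.4 CPM against 63.1 to 143 CPM in WT. Summed macrophage and monocyte markers were at 836 to 935 CPM against 699 to 812 CPM, where 1 of 8 genes rose and 2 fell. The gene that rose was *Ly6c2*, at 573 to 663 CPM against 194 to 270 CPM in WT. *Csf1r* was at 190 to 269 CPM against 403 to 499 CPM in WT, and the median log2 fold change of this list was -1.01. No marker was at 0 in every library. The share of reads that the counting assigned to no feature was 31.4% to 41.5% in WT and 26.7% to 31.9% in *Cxcr2-/-* libraries. Where these reads lie, inside or outside genes, is not known from the counts. The 10 most abundant genes took 9.45% to 11.6% of the counts in WT and 17.03% to 19.2% in *Cxcr2-/-* libraries. The part of these differences in the results below was not tested, and 2 values bear on some of them only. With the 33 markers of other blood cells as a covariate the same counts of autophagy genes passed (5 lower and 1 higher). Without *Cxcr2-/-* 3 and 4, the libraries richest in primary granule RNA, 5 were lower and 0 higher. The covariate held no progenitor marker. *Cxcr2-/-* 1 and 2 still had summed progenitor markers of 1071 and 1104 CPM, so the part of these markers was not tested. In RNA from sorted bulk cells, fewer cells of a stage with high RNA of a gene and less of that RNA per cell cannot be told apart.

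RefSeq promoter windows are shown for the genes of the set that hold the E-box CACGTG, the core of the sites that Tfeb and its relatives bind. These windows (GRCm38.p6, from 250 bases before to 50 bases after a transcription start) were matched for 8 of the 10 genes, 10 windows in all, with none for *Becn1* and *Map1lc3a*. CACGTG, which reads the same on both strands, was in 2 of these 10 windows, those of *Atg7* and *Atg5*, against 7.15% of all 32851 windows. The longer form TCACGTG, which contains CACGTG and was searched on both strands, was in the *Atg7* window and in 3.77% of all windows. The stretches of 100 bases run 5′ to 3′ on the plus strand, with the E-box in capitals, 14 to 9 bases before the start in *Atg5* (chr10:44268239-44268338) and 132 to 127 bases before a RefSeq start in *Atg7* (chr6:114670914-114671013). That *Atg7* start is internal: it lies 27999 bases inside the gene as GENCODE M21 draws it and 9066 bases from the nearest transcript start there, so the first promoter of *Atg7* was not searched. The *Atg5* start lies 19 bases before the GENCODE M21 gene.
Atg7: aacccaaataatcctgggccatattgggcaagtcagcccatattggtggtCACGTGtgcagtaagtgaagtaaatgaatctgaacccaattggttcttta
Atg5: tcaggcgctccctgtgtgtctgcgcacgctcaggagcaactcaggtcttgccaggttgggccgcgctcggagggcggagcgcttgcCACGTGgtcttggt
Of the 2 genes with the motif *Atg5* rose and *Atg7* did not pass, and the 5 genes that fell had no CACGTG in their windows. A match is a description of the letters and not a binding site.

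The Atg8 family genes resemble each other, so their coding sequences were compared to see whether reads could be shared. *Map1lc3a* and *Map1lc3b* were identical at 75.1% of aligned coding positions, *Gabarap* and *Gabarapl1* at 74.6%, and the 4 pairs across these subfamilies at 53.1% to 56.1%. The longest identical runs within each subfamily, shown because they are all that a read could share there, were 15 and 17 bases.
Map1lc3a and Map1lc3b, from base 255 of both coding sequences: gcacagcatggtgag
Gabarap and Gabarapl1, from base 322 of both coding sequences: gcctacagtgatgaaag
Over all protein-coding transcripts of the 4 genes no identical run was longer than 17 bases. Their noncoding transcripts were not compared. *Map1lc3b* has near-identical copies elsewhere, the pseudogenes *Gm6055* (99.7% over 378 bases), *Gm12727* (98.6% over 360 bases), *Gm6054* (98.1% over 378 bases) and *Gm5612* (96.5% over 375 bases). These were listed at no more than 0.607 CPM in any library, but how many reads of the shared stretch met several copies and went uncounted was not measured, so the *Map1lc3b* level is uncertain.

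*Ulk1*, which encodes the kinase that starts autophagy, lies on chromosome 5 (GRCm38, 110784488 to 110810097, minus strand, 27 exon blocks). It was at 237, 250, 215 and 264 CPM in WT 1 to 4 and at 203, 176, 188 and 178 CPM in *Cxcr2-/-* 1 to 4. The groups did not overlap, and the lowest WT library was WT 3. The level was 241 ± 20.9 CPM in WT and 186 ± 12.0 CPM in *Cxcr2-/-* (SD, n = 4 each), a log2 fold change of -0.37 (SE 0.09, edgeR quasi-likelihood, adjusted p = 0.00656). The other genes of its complex, *Ulk2*, *Atg13*, *Rb1cc1* and *Atg101*, held 2 that fell and none that rose: *Ulk2*, the related kinase, fell by 0.75 on the log2 scale (adjusted p = 1.63e-05) and *Rb1cc1*, the scaffold of the complex, by 0.55 (adjusted p = 0.00110), both in edgeR's quasi-likelihood test. *Ulk2* went from 97.6 ± 4.62 to 58.2 ± 3.54 CPM. Over all genes tested 21% passed as lower and 23.7% as higher.

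*Becn1*, a subunit shared by the lipid kinase complexes that mark the growing membrane, lies on chromosome 11 (101285952 to 101302286, minus strand, 10 exon blocks). It was at 106, 91.3, 95.8 and 103 CPM in WT 1 to 4 and at 102, 91.5, 91.4 and 92.5 CPM in *Cxcr2-/-* 1 to 4. The groups overlapped, with *Cxcr2-/-* 1 above its group. Its log2 fold change was -0.07 with a 95% interval from -0.25 to 0.12 (edgeR quasi-likelihood, adjusted p = 0.540), which leaves out a change of 1.5-fold. Exons of *Cntd1* on the opposite strand cover 43.9% of its exon bases, and *Cntd1* was listed at a mean of 4.49 CPM in WT and of 2.32 CPM in *Cxcr2-/-*. Among the 8 genes of the class III lipid kinase complexes 2 rose, 1 fell and 5 did not pass, beside 23.7% higher and 21% lower over all genes. *Pik3c3*, the catalytic subunit, rose by 0.37 on the log2 scale (edgeR quasi-likelihood, adjusted p = 0.00741). *Atg14*, of the complex that acts at the start, rose by 0.47 from a low level of 5.45 CPM (adjusted p = 0.0409, groups overlapping). *Uvrag*, of the complex that acts late, fell by 0.62 (adjusted p = 1.03e-04).

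*Atg7* encodes the enzyme that activates both ubiquitin-like proteins of the pathway, and lies on chromosome 6 (114643097 to 114860614, plus strand, 28 exon blocks). It was at 211, 198, 224 and 212 CPM in WT 1 to 4 and at 241, 217, 193 and 189 CPM in *Cxcr2-/-* 1 to 4. The WT values lay inside the range of the *Cxcr2-/-* values, whose higher 2 libraries were *Cxcr2-/-* 1 and 2 and whose lower 2 were *Cxcr2-/-* 3 and 4. The log2 fold change was -0.01 with a 95% interval from -0.22 to 0.21 (edgeR quasi-likelihood, adjusted p = 0.965), and 0.10 (adjusted p = 0.503) without *Cxcr2-/-* 3 and 4.

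*Atg5*, part of the enzyme complex that attaches Atg8 proteins to lipid, lies on chromosome 10 (44268358 to 44364291, plus strand, 8 exon blocks). It was at 34.9, 28.1, 30.1 and 30.5 CPM in WT 1 to 4 and at 35.6, 39.3, 37.6 and 36.9 CPM in *Cxcr2-/-* 1 to 4. The groups did not overlap, but WT 1 and *Cxcr2-/-* 1 lay close together. The log2 fold change was 0.27 (SE 0.09, edgeR quasi-likelihood, adjusted p = 0.0276). This call was lost with DESeq2 (adjusted p = 0.0708), with RLE (0.0566), upper quartile (0.188) and total count scaling (0.112), with no filter (0.0865) or a stricter filter on low counts (0.0546) and without *Cxcr2-/-* 3 and 4 (0.117). It was also lost in edgeR without WT 2 (adjusted p = 0.129), WT 3 (0.107), WT 4 (0.0665), *Cxcr2-/-* 2 (0.0660), *Cxcr2-/-* 3 (0.0829) or *Cxcr2-/-* 4 (0.0748). The direction was the same in each of these fits.

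Among the 11 conjugation enzymes 3 rose, 2 fell and 6 did not pass, with a median log2 fold change of -0.08. Over all genes tested 23.7% were higher and 21% lower. The larger changes were in 2 genes of low level among the proteases that trim Atg8 proteins. *Atg4c* fell by 1.23 on the log2 scale, from 7.29 ± 1.40 to 3.10 ± 0.634 CPM (edgeR quasi-likelihood, adjusted p = 3.01e-04). *Atg4a* rose by 0.99, from 6.20 ± 0.399 to 12.4 ± 0.552 CPM (adjusted p = 2.80e-05). The more abundant *Atg4b* and *Atg4d*, at 39.3 and 47.5 CPM in WT, changed less (log2 fold changes 0.28 and 0.31, edgeR quasi-likelihood, adjusted p = 0.0144 and 0.0720). *Atg3*, the enzyme that passes Atg8 proteins to lipid, fell by 0.40 from 262 to 198 CPM (adjusted p = 0.00561).

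*Map1lc3b*, the LC3 gene whose product is the usual marker of autophagosomes, lies on chromosome 8 (121590361 to 121598760, plus strand, 3 exon blocks). It was at 516, 388, 458 and 419 CPM in WT 1 to 4 and at 288, 285, 311 and 312 CPM in *Cxcr2-/-* 1 to 4. The groups were well apart, and the *Cxcr2-/-* libraries were closer to each other than the WT libraries were. The level was 445 ± 55.2 CPM in WT and 299 ± 14.2 CPM in *Cxcr2-/-*, a log2 fold change of -0.57 (SE 0.10, edgeR quasi-likelihood, adjusted p = 7.41e-04). The related *Map1lc3a* (chromosome 2, 155276297 to 155278073, plus strand, 4 exon blocks) was at 23.6, 27.0, 20.6 and 23.1 CPM in WT 1 to 4 and at 22.2, 20.3, 23.4 and 21.6 CPM in *Cxcr2-/-* 1 to 4. Its groups overlapped, and its log2 fold change was -0.11 with a 95% interval from -0.33 to 0.12 (edgeR quasi-likelihood, adjusted p = 0.426).

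*Gabarap*, of the other Atg8 subfamily, lies on chromosome 11 (69991143 to 69994951, plus strand, 4 exon blocks). It was at 485, 318, 443 and 389 CPM in WT 1 to 4 and at 422, 405, 442 and 392 CPM in *Cxcr2-/-* 1 to 4. All *Cxcr2-/-* libraries lay within the WT range, which WT 2 widened at its lower end. Its log2 fold change was 0.02 with a 95% interval from -0.25 to 0.29 (edgeR quasi-likelihood, adjusted p = 0.901), and its sign turned under several scalings. *Gabarapl1* (chromosome 6, 129533160 to 129542346, plus strand, 5 exon blocks) was at 7.34, 8.74, 5.85 and 6.25 CPM in WT 1 to 4 and at 4.07, 4.76, 4.55 and 5.78 CPM in *Cxcr2-/-* 1 to 4. The groups did not overlap, although WT 3 and *Cxcr2-/-* 4 differed little. Its log2 fold change was -0.56 (SE 0.17, edgeR quasi-likelihood, adjusted p = 0.0198), and the call was lost without WT 2 (adjusted p = 0.0657) and without *Cxcr2-/-* 1 (adjusted p = 0.0539). Exons of the noncoding *1700101I11Rik* on the opposite strand cover 28.3% of its exon bases, at a mean of 0.247 CPM in WT and of 0.126 CPM in *Cxcr2-/-*. *Gabarapl2*, the remaining Atg8 gene of the wider list, had 45.6 ± 2.55 CPM in WT, 49.9 ± 1.38 CPM in *Cxcr2-/-*, and did not pass (log2 fold change 0.13, edgeR quasi-likelihood, adjusted p = 0.216). Thus 2 of the 5 Atg8 genes fell and none rose, beside 21% lower and 23.7% higher over all genes tested.

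**Figure D2:**
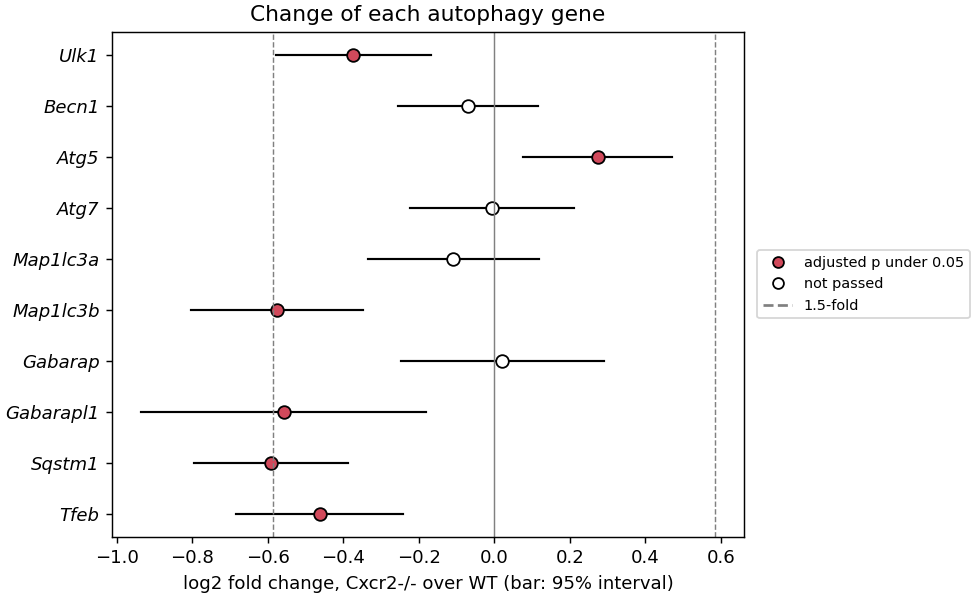
Log2 fold change of each autophagy gene, Cxcr2-/- over WT, with its 95% interval from edgeR's quasi-likelihood fit (4 libraries per group). Filled points had an adjusted p under 0.05, dashed lines mark 1.5-fold, and Sqstm1 lies just past the line while Map1lc3b and Gabarapl1 lie just inside it.

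*Sqstm1* encodes p62, the receptor that carries ubiquitinated cargo into autophagosomes and is degraded with it, and lies on chromosome 11 (50199366 to 50210827, minus strand, 8 exon blocks). It was at 269, 242, 223 and 259 CPM in WT 1 to 4 and at 176, 155, 171 and 157 CPM in *Cxcr2-/-* 1 to 4. The groups were well apart. The level was 248 ± 20.3 CPM in WT and 165 ± 10.4 CPM in *Cxcr2-/-*, a log2 fold change of -0.59 (SE 0.09, edgeR quasi-likelihood, adjusted p = 2.63e-04). Exons of *Mrnip* on the opposite strand cover 17.3% of its exon bases, and *Mrnip* was listed at a mean of 1.54 CPM in WT and of 1.18 CPM in *Cxcr2-/-*.

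Of the 11 cargo receptor genes 6 fell, 1 rose and 4 did not pass, with a median log2 fold change of -0.26. Over all genes tested 21% were lower and 23.7% higher. *Retreg1*, a receptor for the endoplasmic reticulum, fell from 239 ± 19.8 to 112 ± 8.27 CPM, by 1.09 on the log2 scale (edgeR quasi-likelihood, adjusted p = 2.67e-06). *Bnip3*, a receptor for mitochondria, fell by 0.90 from 12.3 ± 2.12 CPM (adjusted p = 4.44e-04). *Optn*, which like *Sqstm1* binds ubiquitinated cargo, rose by 0.59 from 30.9 ± 1.82 to 46.6 ± 7.31 CPM (adjusted p = 9.70e-04).

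*Tfeb*, the transcription factor of lysosomal and autophagy genes, lies on chromosome 17 (47737030 to 47792419, plus strand, 18 exon blocks). It was at 138, 111, 122 and 134 CPM in WT 1 to 4 and at 104, 90.3, 88.8 and 82.8 CPM in *Cxcr2-/-* 1 to 4. The groups did not overlap, with the smallest distance between WT 2 and *Cxcr2-/-* 1. The log2 fold change was -0.46 (SE 0.10, edgeR quasi-likelihood, adjusted p = 0.00270). Of the 6 transcription factor genes of the list 3 fell, 2 rose and 1 did not pass, beside 21% lower and 23.7% higher over all genes. *Mitf*, a relative of *Tfeb*, went from 30.2 ± 2.96 to 12.3 ± 1.49 CPM (log2 fold change -1.29, edgeR quasi-likelihood, adjusted p = 3.17e-06). *Tfe3*, another relative, went from 109 ± 10.4 to 142 ± 25.3 CPM (log2 fold change 0.38, adjusted p = 0.0272, groups overlapping), a gene named after its values were seen. *Tfec*, of the same family, went from 0.670 ± 0.122 to 3.15 ± 1.59 CPM (log2 fold change 2.22, adjusted p = 2.34e-04). *Foxo3*, a forkhead factor that also acts on autophagy genes, fell by 0.50 from 423 ± 51.0 CPM (adjusted p = 0.00354).

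Ratios between members, 4 in all, were compared within each library, where the scaling of libraries has no effect. The log2 ratio of *Gabarapl1* to *Gabarap* was -6.05, -5.19, -6.24 and -5.96 in WT 1 to 4 and -6.70, -6.41, -6.60 and -6.08 in *Cxcr2-/-* 1 to 4, a difference of -0.59. That of *Map1lc3b* to *Map1lc3a* was 4.45, 3.85, 4.48 and 4.18 in WT and 3.70, 3.81, 3.73 and 3.85 in *Cxcr2-/-*, a difference of -0.47. That of *Atg7* to *Atg5* was 2.60, 2.82, 2.89 and 2.79 in WT and 2.76, 2.47, 2.36 and 2.35 in *Cxcr2-/-*, a difference of -0.29. Each of these ratios overlapped between the groups through a single library of a group, and none passed (exact permutation test, two-sided, n = 4 per group, p = 0.0571 for each, 0.0762 with Benjamini-Hochberg adjustment over the 4 ratios). The smallest p that 4 against 4 libraries can give is 0.0286. The ratio of *Sqstm1* to *Map1lc3b* was -0.84 ± 0.18 in WT and -0.86 ± 0.11 in *Cxcr2-/-*, a difference of -0.02 (exact permutation test, two-sided, n = 4 per group, p = 0.857, adjusted 0.857), with linear ratios of 0.487 to 0.622 in WT and 0.505 to 0.610 in *Cxcr2-/-*. All *Cxcr2-/-* values of this ratio lay within the WT range.

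**Figure D3:**
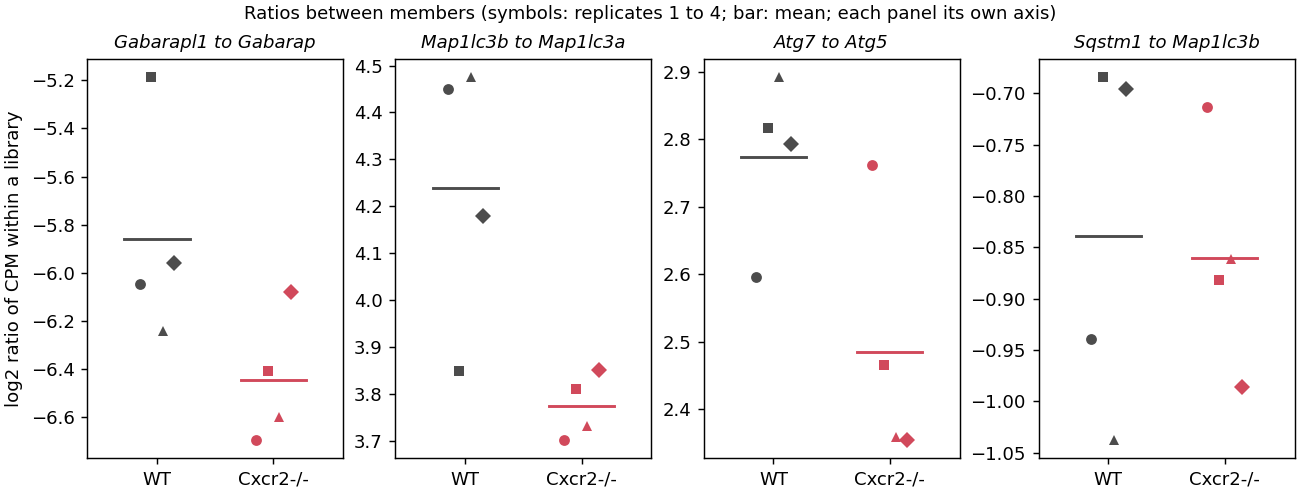
Log2 ratio of the CPM of 2 autophagy genes within each library, for 4 pairs, each panel on its own axis, with a symbol for each replicate and a bar for the mean of 4. The groups overlap in every panel, by a single library in the first 3.

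Levels between genes were compared as CPM per kilobase of exon (the union of all annotated exons in GENCODE M21), over the 4 WT libraries. *Gabarap* was highest at 222 (173 to 263), followed by *Sqstm1* at 74.0 (66.4 to 80.3) and *Map1lc3b* at 59.3 (51.7 to 68.7), which overlapped each other. Below them came *Ulk1* at 37.2 (33.1 to 40.6), *Atg7* at 30.3 (28.4 to 32.1), *Tfeb* at 22.2 (19.5 to 24.4) and *Map1lc3a* at 19.96 (17.4 to 22.8). *Becn1* at 14.02 (12.9 to 15.03) and *Atg5* at 13.1 (11.9 to 14.8) overlapped each other, as did *Tfeb* and *Map1lc3a*, and *Gabarapl1* was lowest at 3.50 (2.91 to 4.34). Neighbours in this order other than these 3 pairs did not overlap. In *Cxcr2-/-* libraries *Gabarap* was again highest, at 225, and *Gabarapl1* lowest, at 2.38, while *Sqstm1* was at 49.1, *Map1lc3b* at 39.8, *Atg7* at 30.1 and *Ulk1* at 28.7. By this measure *Gabarap* was the most abundant of the Atg8 genes in both groups. The order depends on the annotated lengths, which were 1844 bases for *Gabarap* and 7517 bases for *Map1lc3b*. In CPM without length *Map1lc3b* was above *Gabarap* in WT (445 against 409) and below it in *Cxcr2-/-* libraries (299 against 415). The *Map1lc3b* level is also uncertain through its pseudogene copies.

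For each gene the most similar gene of the autophagy, lysosome and nutrient-signal lists was taken by Pearson's r of log2 CPM after subtracting group means, over the 8 libraries and 128 genes. These values describe how libraries of a group varied together, share depth and scaling, and carry no test. *Gabarap* was most like *Atp6v1g1*, a proton pump subunit (0.995), *Sqstm1* like the lysosomal hydrolase gene *Naglu* (0.973) and *Gabarapl1* like *Sesn3*, a nutrient sensor gene (0.955). *Becn1* was most like the sialidase gene *Neu1* (0.950), *Map1lc3b* like *Atp6v0e* (0.947), *Tfeb* like *Becn1* (0.941) and *Atg7* like *Atg4d* (0.928). For *Ulk1* it was the cholesterol transporter gene *Npc1* (0.918), for *Atg5* the pump subunit *Atp6v1b2* (0.863) and for *Map1lc3a* the chloride transporter gene *Clcn7* (0.666). With group means left in, r was negative for *Ulk1* with *Npc1* (-0.585), *Sqstm1* with *Naglu* (-0.454) and *Map1lc3a* with *Clcn7* (-0.085). For the other pairs it was 0.475 to 0.974.

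The wider autophagy list of 63 genes, 62 of them tested, held 24 genes that fell, 12 that rose and 26 that did not pass, beside 21% lower and 23.7% higher over all genes tested. Without the 10 genes above, 19 of 52 fell and 11 rose. The list of membrane supply and lipid transfer genes had 6 of 9 genes lower and 2 higher, with a median log2 fold change of -0.53. In it *Tmem41b*, which moves lipid between membrane leaflets of the endoplasmic reticulum, fell from 50.5 ± 8.12 to 24.0 ± 4.03 CPM (log2 fold change -1.07, edgeR quasi-likelihood, adjusted p = 7.08e-05). *Wdr45*, a lipid-binding protein of the growing membrane, fell by 0.66 (adjusted p = 3.26e-04), and its relative *Wipi1* rose by 0.86 from 44.7 ± 3.78 to 81.1 ± 11.9 CPM (adjusted p = 6.23e-05). The size of this rise differed between libraries, with *Wipi1* at 93.9, 87.5, 76.1 and 67.1 CPM in *Cxcr2-/-* 1 to 4. Among the 7 genes of fusion with the lysosome 2 rose, 1 fell and 4 did not pass. *Epg5*, a tether, rose by 0.76 (edgeR quasi-likelihood, adjusted p = 2.74e-05) and *Snap29*, a fusion protein, by 0.60 (adjusted p = 1.92e-04), whereas its partner *Stx17* fell by 0.48 (adjusted p = 0.00226).

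Downstream of the autophagosome, 13 of the 37 lysosome genes rose and 6 fell, beside 23.7% higher and 21% lower over all genes tested. Of 15 proton pump genes 6 rose, none fell and 9 did not pass, with a median log2 fold change of 0.19. *Atp6v0a1*, a membrane subunit, rose from 182 ± 10.2 to 304 ± 17.4 CPM (log2 fold change 0.74, edgeR quasi-likelihood, adjusted p = 3.04e-05), *Atp6v1a*, the catalytic subunit, rose by 0.70 (adjusted p = 3.20e-05) and *Atp6v1g1* by 0.42 (adjusted p = 0.00961). Of 22 genes of the lysosomal membrane and hydrolases 7 rose, 6 fell and 9 did not pass. *Gla*, alpha-galactosidase, fell by 1.71 (edgeR quasi-likelihood, adjusted p = 3.95e-04) and *Gaa*, acid alpha-glucosidase, fell by 0.97 (adjusted p = 0.00942).

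Genes of the nutrient kinases that act on Ulk1 and Tfeb proteins went in both directions. So did all genes tested, with 23.7% higher and 21% lower. Of 24 genes of mTORC1 and its control 10 rose, 8 fell and 6 did not pass, among them *Mlst8*, an mTOR subunit, which rose by 1.23 (edgeR quasi-likelihood, adjusted p = 7.08e-05), *Lamtor2*, of the lysosomal anchor, which rose by 0.99 (adjusted p = 7.06e-05), and *Rragd*, a GTPase that recruits mTORC1, which fell by 0.93 (adjusted p = 0.00129). Of the 6 AMPK genes tested of 7, 1 rose and 2 fell. The beta subunit genes moved in opposite directions, *Prkab2* from 17.7 ± 1.66 to 8.01 ± 0.330 CPM (log2 fold change -1.15, edgeR quasi-likelihood, adjusted p = 5.90e-06) and *Prkab1* from 115 ± 9.76 to 179 ± 31.2 CPM (log2 fold change 0.64, adjusted p = 0.00112), and *Prkag2* fell by 0.63 (adjusted p = 2.12e-04).

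**Figure D4:**
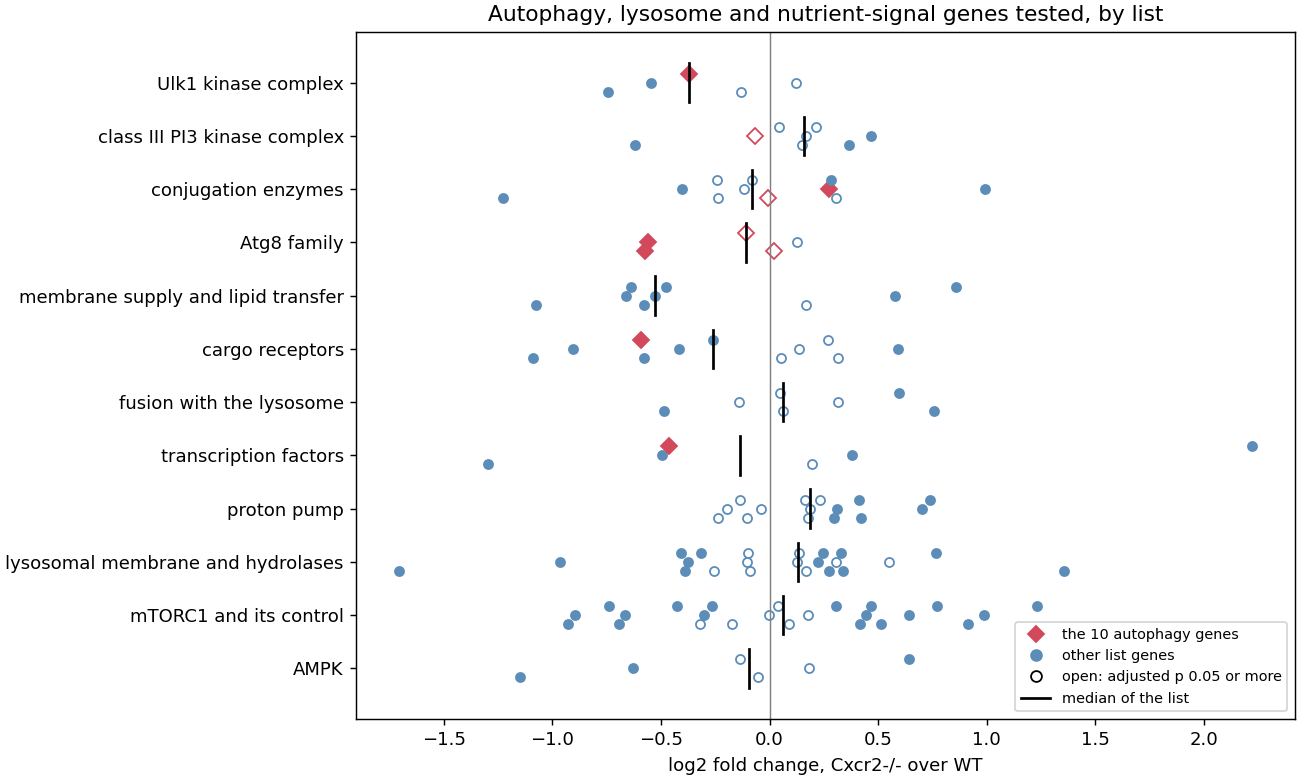
Log2 fold change, Cxcr2-/- over WT, of each tested gene of the autophagy, lysosome and nutrient-signal lists, 1 row per list, with the 10 autophagy genes as diamonds and a bar for the median of the list. Open symbols had an adjusted p of 0.05 or more, the median of membrane supply and lipid transfer was -0.53, and that of the proton pump was 0.19.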

How the data were processed

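RNA was extracted with TRIzol from sorted spleen neutrophils, depleted of ribosomal RNA and made into strand-specific libraries, which were sequenced at both ends. After trimming and alignment with STAR (mm10), the authors counted with HTSeq and deposited whole-number counts per gene, not normalized. The strand setting of the counting is not given in the sources used here, so reads of opposite-strand genes are uncertain. Gene versions in the files are above those of GENCODE M21 for 52096 genes and equal for 35, so symbols and positions were taken by stable identifier, and 3281 of 55414 genes had no entry.

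Groups and replicate numbers came from the labels. No libraries of a group agreed within sampling noise (chi-square of 23.9 to 99.0 per gene for each pair). Counts were compared in R 4.3.3 with edgeR 4.0.16 (quasi-likelihood test, TMM, filterByExpr, Benjamini-Hochberg adjustment), with a biological coefficient of variation of 0.202. A gene passed at an adjusted p under 0.05 and was called with a 1.5-fold change as well. Log2 ratios within a library were compared with an exact permutation test. The steps were tested on simulated data.

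Named genes are the 10 autophagy genes, up to 3 genes per list with the largest size of change among those that passed with a mean of at least 1 CPM, and the most similar gene of each. Of the wider autophagy list, *Gabarapl2*, *Tfe3* and *Atg4b* are named outside this rule, and *Atg4d* is given with its level beyond it. A gene that falls under this rule is not reported here. The members and lists were chosen with earlier results of these data known. Near-identical copies were sought at 95% identity over at least 120 bases. Alternatives were DESeq2 1.42.0, RLE and upper quartile scaling, no filter, a stricter filter (every library with at least 10 counts), a marker covariate, a block for the replicate number, 1 CPM added before ratios and each library left out. Total count scaling, leaving out *Cxcr2-/-* 3 and 4, and counts of the wider lists and of genes past 1.5-fold under each alternative were added after the data were seen.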

Additional observations from a re-analysis of the deposited data

Results flagged for a closer look

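In 4 of 92 groups of 4 libraries tested for the named genes, a single library lay far from the other 3 by Dixon's criterion, where chance gives about 1 in 20. *Becn1* was at 102 CPM in *Cxcr2-/-* 1, against 91.4 to 92.5 CPM in the other *Cxcr2-/-* libraries. *Snap29* was at 85.8 CPM in *Cxcr2-/-* 1, against 72.7 to 74.7 CPM, and *Atg4a* was at 11.5 CPM in the same library, against 12.6 to 12.7 CPM. *Foxo3* was at 346 CPM in WT 3, against 444 to 451 CPM in the other WT libraries.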

How the results depend on the processing

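The count of autophagy genes that fell was 5 under every alternative that kept all libraries and without *Cxcr2-/-* 3 and 4, and 4 to 5 with single libraries left out. The count that rose was 0, not 1, with DESeq2, RLE, upper quartile or total count scaling, no filter, the stricter filter and without *Cxcr2-/-* 3 and 4, and 0 to 1 with single libraries left out. The count called lower at 1.5-fold was 1, and 2 with DESeq2, RLE or no filter, 3 with upper quartile or total count scaling, the stricter filter or without *Cxcr2-/-* 3 and 4, and 0 to 3 with single libraries left out. Upper quartile scaling moved the median of all genes to -0.11 from 0.01, the share of called genes that were higher to 38.0% (40.7% with total counts) from 50%, and the wider autophagy genes that rose to 7 from 12. Over all alternatives 23 to 28 genes of the wider list fell and 4 to 6 proton pump genes rose, and the other lists were not recomputed.

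*Gabarap* changed sign with RLE (-0.0031), upper quartile (-0.10), total counts (-0.064) and the stricter filter (-0.016), without *Cxcr2-/-* 3 and 4 (-0.0021), and with single libraries left out (range -0.10 to 0.12, -1.04e-05 without WT 4, -0.021 without *Cxcr2-/-* 3). *Atg7* changed sign without *Cxcr2-/-* 3 and 4 (0.10), and with single libraries left out (range -0.074 to 0.024, 0.0033 without WT 3). The ratio of *Sqstm1* to *Map1lc3b* ranged from -0.087 to 0.030 with single libraries left out (0.026 without WT 4, 0.020 without *Cxcr2-/-* 4). The causes were not tested.

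Same-numbered mice are different animals and their deviations did not pair (r from -0.30 to 0.21). With the replicate number as a block 5 autophagy genes fell and 1 rose, *Atg5* at an adjusted p of 0.04997 in edgeR's quasi-likelihood test, and the block changed no call of these genes.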
